A study of Homo sapiens with 2 samples.

Results

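Intermediate filaments are the tough, rope-like polymers of the cytoskeleton, and the lamins are the family members that line the inside of the nuclear envelope. The genes described here are VIM, NES, SYNM, KRT7, KRT8, KRT18 and KRT19, which encode cytoplasmic filament proteins, and LMNA, LMNB1 and LMNB2, which encode lamins. They are a set of 10 named genes, taken from the files by symbol, out of 26370 gene names in the deposited files, and all 10 are listed, with 22 transcripts among them. The study holds 2 RNA-seq libraries, both from the immortalised human line CHME3, whose label gives its cell type as microglia. In the treated library the cells had received muscarinic receptor antagonists, drugs that block a family of acetylcholine receptors, at 5 µg/ml, which the labels call the EC50, and in the untreated library they had received none. The compound and the time of exposure are not given in the sources used here. Each condition has 1 library, so no difference has a replicate check, no test between conditions is possible, and every interval compares the libraries and not the conditions.

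Vimentin is the type III filament of mesenchymal and many cultured cells, nestin and synemin are large partners that need vimentin or a similar protein to assemble, and keratins form obligate pairs of a type I and a type II chain. KRT7 and KRT8 are type II chains and KRT18 and KRT19 are type I chains, all of them keratins of simple epithelia. A-type lamins (lamin A and lamin C) come from LMNA by alternative splicing, while the B-type lamins come from LMNB1 and LMNB2. Lamin A and the B-type lamins are made with a C-terminal CaaX motif that is farnesylated, and lamin C ends before it.

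The B-type lamin genes differ in sequence even at the motif that anchors their proteins to the membrane, and the ends of their coding sequences are shown for that reason. They are given 5′ to 3′ from GENCODE transcripts on GRCh38, the assembly that the submitters' processing notes call hg38, with the 4 codons of the CaaX motif in capitals before the stop codon. The lamin B1 end lies on chromosome 5, plus strand, and the lamin B2 end on chromosome 19, minus strand. Over these 12 bases the B-type lamins shared 6.
lamin B1: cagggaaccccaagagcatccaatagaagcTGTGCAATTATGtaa
lamin B2: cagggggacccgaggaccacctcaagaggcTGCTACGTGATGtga

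Levels are given in FPKM, fragments scaled to transcript length and sequencing depth, as the authors deposited them, summed over the transcripts of a gene. FPKM is already per length, so levels can be set side by side between genes. Brackets after an FPKM are the authors' lower and upper bounds, summed over transcripts in the same way. Brackets after a ratio of treated over untreated FPKM are 95% intervals on estimated fragments. They hold only the counting error, not the error of dividing reads among transcripts or gene copies. The estimated depth was 7295689 fragments in the treated and 6702761 in the untreated library.

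The members spanned a wide range of levels, from a gene ranked 23 of all genes to a gene at 0, and their order was the same in both libraries. VIM stood highest, followed by LMNA, KRT18, LMNB2, KRT7, LMNB1, KRT8, SYNM, NES and KRT19. The bounds of LMNA and KRT18 overlapped in both libraries, as did those of KRT7 and LMNB1, so these neighbours do not differ beyond their bounds. NES and KRT19, at the bottom, could not be set apart either. All other neighbours in the order had bounds that did not overlap. A mean of at least 1 FPKM over the libraries, the floor used throughout, was reached by 8 of the 10 members, and NES and KRT19 were below it.

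**Figure D1:**
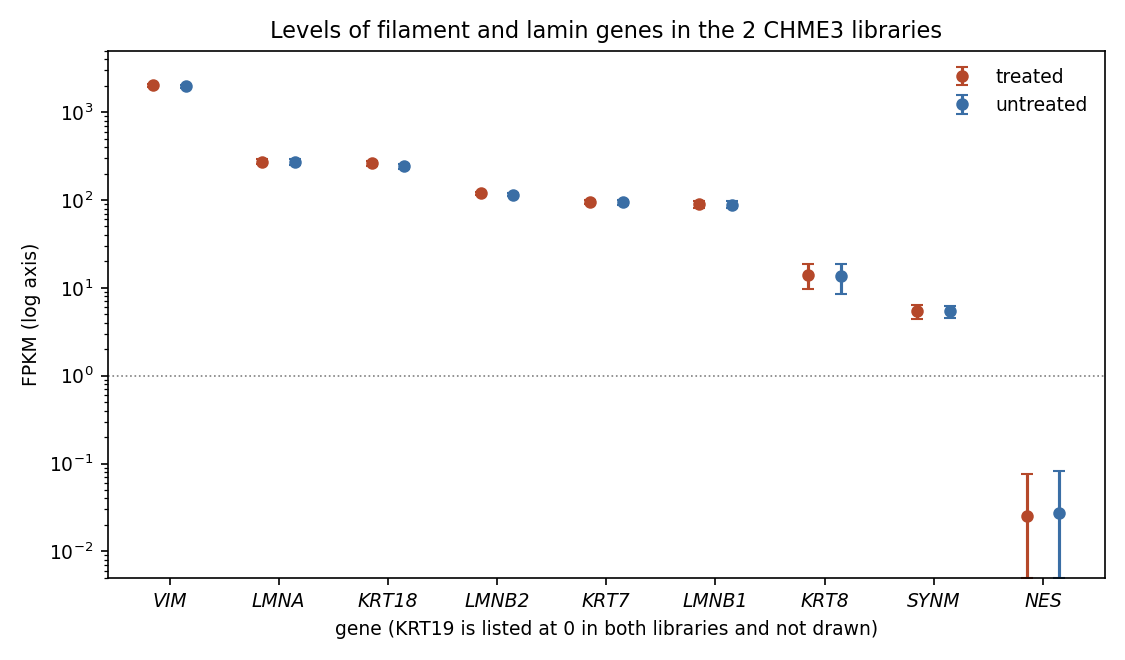
FPKM of each member on a log axis, in the treated (left point) and untreated (right point) library, with the authors' bounds as bars and a dotted line at 1 FPKM. VIM stands 7.41-fold above LMNA in the treated and 7.26-fold above it in the untreated library, and the NES bars run down to 0, below the axis.

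No member differed between the libraries by as much as 1.5-fold. For this count 1 FPKM was added to both values before taking the log2 of treated over untreated, so the ratio of a low gene is understated. On this scale 0 of the 8 members over the floor passed 2-fold, where 0.66% of 11668 genes over the floor did so, and 0 passed 1.5-fold, against 2.23% of those genes. Both shares are too small for a count of 0 among 8 genes to set the members apart. The 8 values ran from 0.0021 for SYNM to 0.12 for KRT18. Their median was 0.030, beside 0.0026 over all genes, whose quartiles were -0.098 and 0.11. All 8 values were above 0, which was true of 50.7% of all genes over the floor, and 7 of them lay within those quartiles. When FPKM was rescaled to a median ratio of 1 over all genes, SYNM came to -0.00033.

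The counting interval of the ratio lay above 1 in 2 members, VIM and KRT18, and below 1 in 0. Over all genes it lay above 1 in 6.6% and below 1 in 6.19%. Both members lost this with fragments recovered from the authors' bounds, a setting added after the data were seen, under which the interval excluded 1 in 0 members and in 9.29% of all genes. For VIM the bounds correspond to 2173 fragments in the treated and 2155 in the untreated library, where FPKM, length and depth give 28798 and 26081, and the reason for this gap was not tested.

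**Figure D2:**
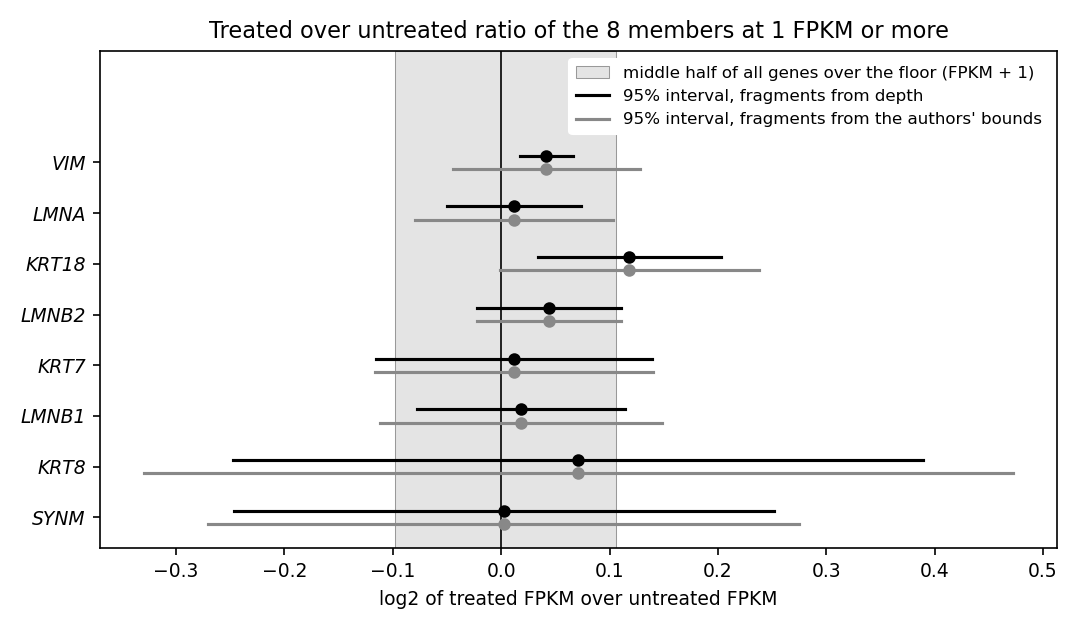
Log2 of treated over untreated FPKM (horizontal axis) for the 8 members over the floor, with 95% counting intervals from depth-based fragments (black) and from fragments recovered from the authors' bounds (grey). The grey band runs between the quartiles of all genes over the floor, -0.098 to 0.11 on the FPKM + 1 scale, and KRT18 is the 1 member whose point lies outside it.

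VIM, which encodes vimentin (chromosome 10, 17228259 to 17237593, plus strand), was at 2025 FPKM (1938 to 2112) in the treated library, against 1967 FPKM (1882 to 2052) in the untreated library. The FPKM ratio was 1.03 (1.01 to 1.05) with depth-based fragments and 1.03 (0.969 to 1.09) with those from the bounds. VIM ranked 23 of all genes in either library and held 0.414% of all FPKM in the treated and 0.402% in the untreated library. Of the FPKM of all cytoplasmic filament genes, VIM made up 82.4% in the treated and 82.9% in the untreated library. Its exons share 641 bases with the opposite-strand RNA VIM-AS1, which was listed at 0.585 FPKM in the treated and 0.631 FPKM in the untreated library. Whether strand was kept is not given in the sources used here, and reads of overlapping genes then cannot be told apart. The 3 protein-coding genes nearest to VIM, by Euclidean distance of log2(FPKM + 1) over the 2 libraries, were RPL35, LGALS1 and RPLP0, at distances of 0.057, 0.057 and 0.092.

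SYNM encodes synemin, a type IV filament protein that co-assembles with vimentin or desmin (chromosome 15, 99105080 to 99135595, plus strand). It was at 5.40 FPKM (4.44 to 6.35) in the treated and 5.39 FPKM (4.57 to 6.25) in the untreated library, a ratio of 1.002 (0.843 to 1.19). The long transcript accounted for 91.7% of this in the treated and 97.8% in the untreated library. A shorter transcript that leaves out 936 bases was listed at 0.449 FPKM (0.168 to 0.731) in treated cells and 0.118 FPKM (0 to 0.277) in untreated cells. Its bounds overlap between the libraries, and its ratio of 3.80 rests on about 10 treated and 2 untreated fragments, with an interval of 0.810 to 35.7.

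NES encodes nestin, a filament protein known from neural progenitors and many dividing mesenchymal cells (chromosome 1, 156668763 to 156677397, minus strand). It was listed at 0.0254 FPKM in the treated and 0.0273 FPKM in the untreated library, the worth of 1 fragment in each. NES was thus at the detection limit of both libraries, in which VIM was among the most abundant genes. Of 8 other neural progenitor markers 1 was over the floor, and SOX2 was listed at 0 in both. The 1 was PAX6, a transcription factor of neural and eye development, at 10.7 FPKM in treated and 7.79 FPKM in untreated cells. Its ratio was 1.37 (1.12 to 1.68), or 1.06 to 1.78 with fragments from the bounds. Over all genes over the floor, the counting interval lay above 1 in 6.6%.

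The remaining type III and IV filament genes and the beaded filament genes were mostly near 0. Of 11 such genes 2 were over the floor, both with little-known roles. IFFO1, an orphan member of the family, was at 10.1 FPKM in the treated and 8.07 FPKM in the untreated library, a ratio of 1.25 (0.9996 to 1.57). IFFO2 was at 5.40 FPKM in the treated and 4.30 FPKM in the untreated library, a ratio of 1.25 (1.02 to 1.54). INA, which encodes the neuronal filament alpha-internexin, was at 0.852 FPKM in the treated and 0.770 FPKM in the untreated library, and BFSP1, a beaded filament protein of the lens, at 0.405 and 0.218 FPKM in the same order. GFAP, the astrocyte filament, was listed at 0 in the treated and at 0.0506 FPKM in the untreated library. DES, the muscle filament, was at 0.0662 FPKM in the treated and 0.142 FPKM in the untreated library.

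KRT18 was the most abundant keratin in these cells, and the member with the largest ratio. KRT18 (chromosome 12, 52948871 to 52952901, plus strand) was at 262 FPKM (244 to 280) in the treated library and at 241 FPKM (225 to 258) in the untreated library. The FPKM ratio was 1.09 (1.02 to 1.15) with depth-based fragments and 1.09 (0.999 to 1.18) with those from the bounds, the second of which includes 1. Its main transcript was at 252 FPKM in the treated and 236 FPKM in the untreated library. A second record, which differs at its 5′ end, was at 10.5 FPKM (7.49 to 13.5) in treated and 5.46 FPKM (3.20 to 7.72) in untreated cells, a ratio of 1.92 (1.15 to 3.31) on the fragments from the bounds. This record made up 4.01% of KRT18 in the treated and 2.26% in the untreated library, and its bounds still overlap between the libraries.

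KRT8, the classical partner of KRT18, was far lower (chromosome 12, 52897187 to 52949866, minus strand). It was at 14.2 FPKM (9.63 to 18.9) in treated and 13.5 FPKM (8.47 to 18.7) in untreated cells, a ratio of 1.05 (0.842 to 1.31). KRT18 was thus 18.5-fold above KRT8 in the treated and 17.9-fold above it in the untreated library. Its 4 records share 1739 bases and differ at their 5′ ends. The most abundant was at 6.96 FPKM (5.09 to 8.83) in treated and 5.42 FPKM (3.65 to 7.19) in untreated cells, a ratio of 1.28 (0.834 to 1.995). Of the others, 2 begin inside the neighbouring KRT18 gene on the opposite strand, and KRT8 and KRT18 share 135 exonic bases there. RefSeq names 1 of these 2 as non-coding. It made up 26.5% of the KRT8 sum in the treated and 29.8% in the untreated library, and every KRT8 level and keratin ratio given here includes it. GENCODE names 50 pseudogenes of KRT8 and 67 of KRT18, of which the files list 1 each, both at 0. How multi-mapping reads of these genes were counted is not given in the sources used here, so the absolute levels of KRT8 and KRT18 are uncertain.

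KRT7, the second type II member (chromosome 12, 52233170 to 52248925, plus strand), was the more abundant of the type II chains. It was at 94.9 FPKM (89.0 to 100.8) in the treated and 94.1 FPKM (88.0 to 100.3) in the untreated library, a ratio of 1.01 (0.923 to 1.10), and stood 6.70-fold above KRT8 in treated and 6.98-fold above it in untreated cells. KRT19, a type I chain of simple and ductal epithelia (chromosome 17, 41523617 to 41528389, minus strand), was listed at 0 in each library. A count of 0 allows up to 3 fragments, worth 0.320 FPKM in the treated and 0.341 FPKM in the untreated library. Summed over the members, type I keratins were 2.40-fold above type II keratins in the treated library and 2.24-fold above them in the untreated library. With every other keratin listed in the files added, the ratio of type I to type II was 2.24 in treated and 2.14 in untreated cells.

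Few other keratins were present. Among 26 other type I keratins 2 were over the floor, as were 2 of 24 other type II keratins, and 17 of each group were listed at 0 in both libraries. KRT10, a keratin of differentiating epidermis, was at 18.2 FPKM in the treated and 19.2 FPKM in the untreated library, a ratio of 0.948 (0.794 to 1.13). KRT17, known from basal and stressed epithelia, was at 1.47 FPKM in the treated and 1.06 FPKM in the untreated library, from 15 and 10 fragments. KRT80 was at 9.07 FPKM in treated and 8.32 FPKM in untreated cells, and KRT81, a hair keratin, at 6.69 FPKM in treated and 5.41 FPKM in untreated cells. The intervals of all 4 ratios include 1. KRT34, KRT15, KRT86 and KRT79 were below 1 FPKM in both libraries.

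Keratin expression was accompanied by few of the usual epithelial genes. Of 16 epithelial markers 5 were over the floor, 1 higher and 4 lower in treated cells with a median log2 ratio of -0.11, which became -0.044 with a pseudocount of 5 and 0.16 with a floor of 5 FPKM, where MUC1 alone remains. The levels of 10 stayed under 1 FPKM in either library, and 3, among them GRHL2 and RAB25, were at 0 throughout. Their summed level was 19.2 FPKM in the treated and 19.6 FPKM in the untreated library, most of it from MUC1, a membrane mucin, at 12.3 FPKM in treated and 10.9 FPKM in untreated cells. CDH1, which encodes E-cadherin, was at 0.00422 FPKM in treated and 0.00396 FPKM in untreated cells, and EPCAM, an epithelial adhesion protein, at 0.178 and 0.504 FPKM in the same order. OCLN, ELF3, CLDN4 and CDH3 lay between 1 and 2 FPKM in both. Mesothelial cells also carry simple keratins together with vimentin. Of 6 mesothelial markers 2 were over the floor and 3, WT1, CALB2 and ITLN1, were listed at 0 in both libraries. MSLN, mesothelin, was at 4.89 FPKM in the treated and 4.00 FPKM in the untreated library, a ratio of 1.22 (0.846 to 1.78), and LRRN4, a membrane protein, at 3.70 and 2.49 FPKM, a ratio of 1.49 (1.02 to 2.19). In a bulk sample, fewer cells of a type and less RNA per cell cannot be told apart.

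LMNA as a whole had a ratio near 1, and the lamin A and lamin C transcripts divided it somewhat differently in the libraries, by no more than was seen in many other genes. LMNA (chromosome 1, 156082546 to 156140089, plus strand) was at 273 FPKM (254 to 293) in the treated and 271 FPKM (252 to 291) in the untreated library, a ratio of 1.01 (0.966 to 1.05). The lamin A transcript was at 74.9 FPKM (69.6 to 80.2) in treated cells, against 87.0 FPKM (81.0 to 92.9) in untreated cells. Its ratio was 0.862 (0.781 to 0.95003) on the fragments from the bounds, and the authors' bounds of the libraries did not overlap. Lamin C was at 193 FPKM (182 to 205) in treated and 181 FPKM (169 to 192) in untreated cells, a ratio of 1.07 (0.984 to 1.17), with bounds that overlapped. Lamin A was thus 27.9% of the lamin A and lamin C total in the treated library and 32.5% in the untreated library, and lamin C was 2.58-fold above lamin A in treated and 2.08-fold above it in untreated cells.

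The size of this shift lay within the background of these libraries. Lamin A was the only one of 14 member transcripts over the floor whose bounds did not overlap between libraries, while 13.4% of 16888 transcripts over the floor showed such a gap. Among 850 transcripts at 50 FPKM or more in genes with several transcripts, 9.29% did so. The most abundant LMNA transcript, lamin C, made up 70.8% of LMNA in the treated and 66.7% in the untreated library, a shift of 4.16 percentage points. The median absolute shift over 914 genes with several transcripts and a mean of at least 50 FPKM was 1.70 points, and 75.4% of those genes shifted by less than LMNA. Taken as fragments in place of FPKM, lamin C was 60.3% in the treated and 55.6% in the untreated library.

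The remaining LMNA records were at or below a few FPKM. The transcript without exon 10 was at 2.68 FPKM (1.76 to 3.61) in treated and 1.49 FPKM (0.776 to 2.21) in untreated cells, a ratio of 1.80 (0.976 to 3.43). A further 3 records, with alternative first exons, were at 1.03 FPKM or less in both libraries. The 3 protein-coding genes nearest to LMNA over the 2 libraries, by the same distance as for VIM, were CALM3, HNRNPK and PLK2, at distances of 0.027, 0.047 and 0.048.

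**Figure D3:**
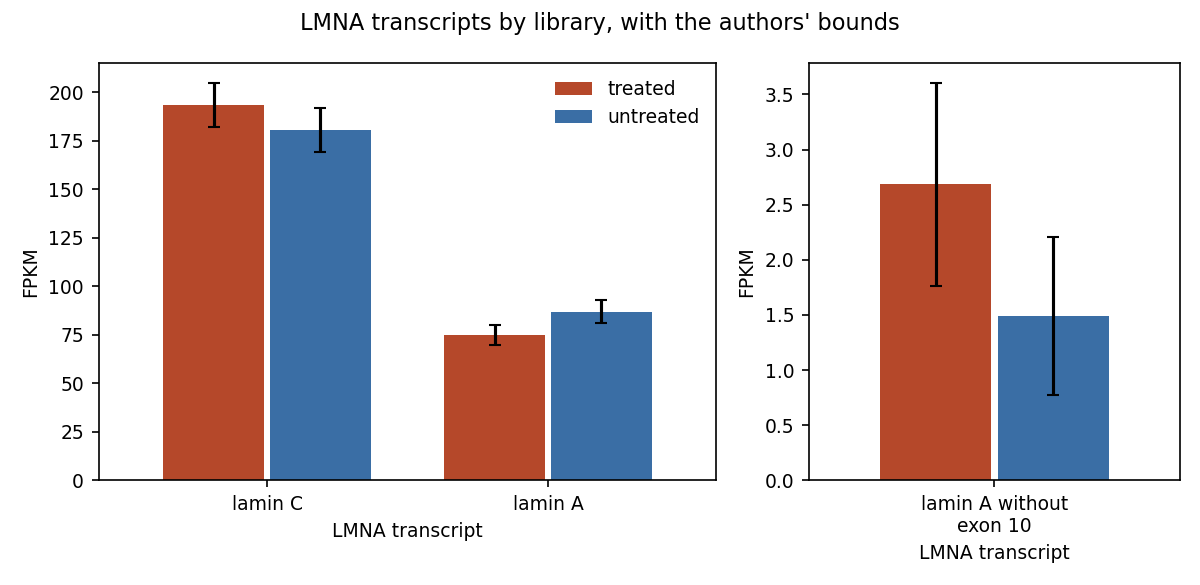
FPKM of 3 LMNA transcripts in the treated (left bar) and untreated (right bar) library, with the authors' bounds as error bars and axes from 0. The lamin A bars are 74.9 and 87.0 FPKM with bounds that do not overlap, while the bounds of lamin C and of the transcript without exon 10 overlap.

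The B-type lamins were alike in both libraries. LMNB1, which encodes lamin B1 (chromosome 5, 126776623 to 126837020, plus strand), was at 90.0 FPKM (81.7 to 98.2) in treated and 88.8 FPKM (80.4 to 97.2) in untreated cells, a ratio of 1.01 (0.948 to 1.08). Its longer transcript was at 60.1 FPKM in treated and 60.0 FPKM in untreated cells, and its shorter one, which starts later, at 29.8 and 28.8 FPKM in the same order. LMNB2, which encodes lamin B2 (chromosome 19, 2428165 to 2456968, minus strand), was at 119.1 FPKM (115 to 123) in treated and 115 FPKM (112 to 119) in untreated cells, a ratio of 1.03 (0.985 to 1.08). A-type lamin RNA was 1.31-fold the sum of the B-type genes in the treated library and 1.33-fold in the untreated library. LMNB2 was 1.32-fold above LMNB1 in treated and 1.30-fold above it in untreated cells.

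Loss of lamin B1 and gain of cell cycle inhibitors are known marks of senescent cells. Of 11 genes of senescence and proliferation, all over the floor, 3 were higher and 8 lower in treated cells, with a median log2 ratio of -0.071. The counting interval lay above 1 in 3 of them and below 1 in 2, against 6.6% and 6.19% of all genes, and with fragments from the bounds it lay above 1 in 2 and below 1 in 2. HMGB2, a chromatin protein lost in senescence, was at 88.7 FPKM in treated and 105 FPKM in untreated cells, a ratio of 0.843 (0.768 to 0.925). CDKN1B, which encodes the inhibitor p27, was at 24.9 FPKM in treated and 28.6 FPKM in untreated cells, a ratio of 0.869 (0.760 to 0.995). CXCL8, a chemokine, was at 18.1 FPKM in treated and 14.2 FPKM in untreated cells, a ratio of 1.27 (1.02 to 1.58), and IL6, a cytokine, at 4.78 and 6.05 FPKM, a ratio of 0.790 (0.490 to 1.27).

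Genes that work with lamins and filaments were grouped into 4 lists. Of their 47 genes over the floor 0 passed 1.5-fold, against 2.23% of all genes over the floor, too small a share for the count of 0 to set these lists apart. The LINC complex joins the cytoskeleton to the nucleus, and inner nuclear membrane proteins anchor lamins and chromatin. Of 19 such genes 17 were over the floor, 6 higher and 11 lower in treated cells, with a median log2 ratio of -0.045, or -0.013 with the most abundant transcripts. TOR1A, the ATPase torsin of the nuclear envelope lumen, was at 21.9 FPKM in treated and 17.3 FPKM in untreated cells, a ratio of 1.27 (1.06 to 1.51). BANF1, which bridges DNA to the envelope, was at 159 FPKM in treated and 174 FPKM in untreated cells, a ratio of 0.913 (0.840 to 0.993). No other gene of the list had a counting interval that excluded 1, and with fragments from the bounds that of BANF1 included it, at 0.822 to 1.02. With 1 gene each way among 17, the list lay near the shares of all genes, 6.6% above 1 and 6.19% below 1. SYNE3, a nesprin, was at 6.06 FPKM in treated and 6.88 FPKM in untreated cells, and TOR1AIP1, which activates torsin, at 17.3 and 15.7 FPKM, both with intervals that include 1.

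The enzymes that farnesylate, trim and methylate CaaX ends, such as those printed above, were all detected. Of 6 genes 5 were over the floor, 4 higher and 1 lower, with a median log2 ratio of 0.042, or 0.065 with no floor, and no interval excluded 1. ZMPSTE24, the protease that cuts prelamin A, was at 9.31 FPKM in treated and 9.25 FPKM in untreated cells. FNTB, a farnesyltransferase subunit below the floor, was at 1.145 FPKM in treated and 0.513 FPKM in untreated cells, from 22 and 9 fragments. ICMT, the methyltransferase, was at 21.8 FPKM in treated and 20.4 FPKM in untreated cells, FNTA, the other farnesyltransferase subunit, at 31.1 and 30.1 FPKM, and RCE1, the CaaX protease, at 15.8 and 17.2 FPKM, each in the same order. NARF, which binds prelamin A, was at 24.1 FPKM in treated and 20.9 FPKM in untreated cells, a ratio of 1.15 (0.955 to 1.39).

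Kinases and a cyclin that act on filaments and lamins, several of them at mitosis, made up a list of 14 genes, all over the floor, with 9 higher and 5 lower and a median log2 ratio of 0.040. CDK1, which phosphorylates lamins as the nucleus breaks down, was at 116 FPKM in treated and 134 FPKM in untreated cells, a ratio of 0.868 (0.808 to 0.933). ROCK2 and ROCK1, kinases that phosphorylate vimentin, had ratios on opposite sides of 1. ROCK2 was at 8.27 FPKM in treated and 6.999 FPKM in untreated cells, a ratio of 1.18 (1.01 to 1.38), and ROCK1 at 8.43 and 9.86 FPKM, a ratio of 0.855 (0.744 to 0.982). PRKCD, a protein kinase C, was at 18.8 FPKM in treated and 16.4 FPKM in untreated cells, a ratio of 1.15 (0.983 to 1.35).

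Plakins and plaque proteins tie filaments to junctions and to other parts of the cytoskeleton. Of 15 such genes 11 were over the floor, 6 higher and 5 lower, with a median log2 ratio of 0.068, or 0.027 with a floor of 5 FPKM and 0.12 with the most abundant transcripts. PLEC, which encodes the broad linker plectin, was at 72.9 FPKM in treated and 67.4 FPKM in untreated cells, a ratio of 1.08 (1.05 to 1.12). It was the 1 gene of these 11 whose interval excluded 1. Over all genes the interval lay above 1 in 6.6% and below 1 in 6.19%, so this count does not set the list apart. PKP2, a plakophilin of desmosomes, was at 4.98 FPKM in treated and 3.91 FPKM in untreated cells, a ratio of 1.27 (0.987 to 1.64), PKP3 at 7.56 and 8.28 FPKM, and TCHP, which binds keratins, at 6.52 and 5.95 FPKM, in the same order. DSP, desmoplakin, was at 12.8 FPKM in treated and 12.9 FPKM in untreated cells, while PKP1 and EVPL were listed at 0 in both.

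**Figure D4:**
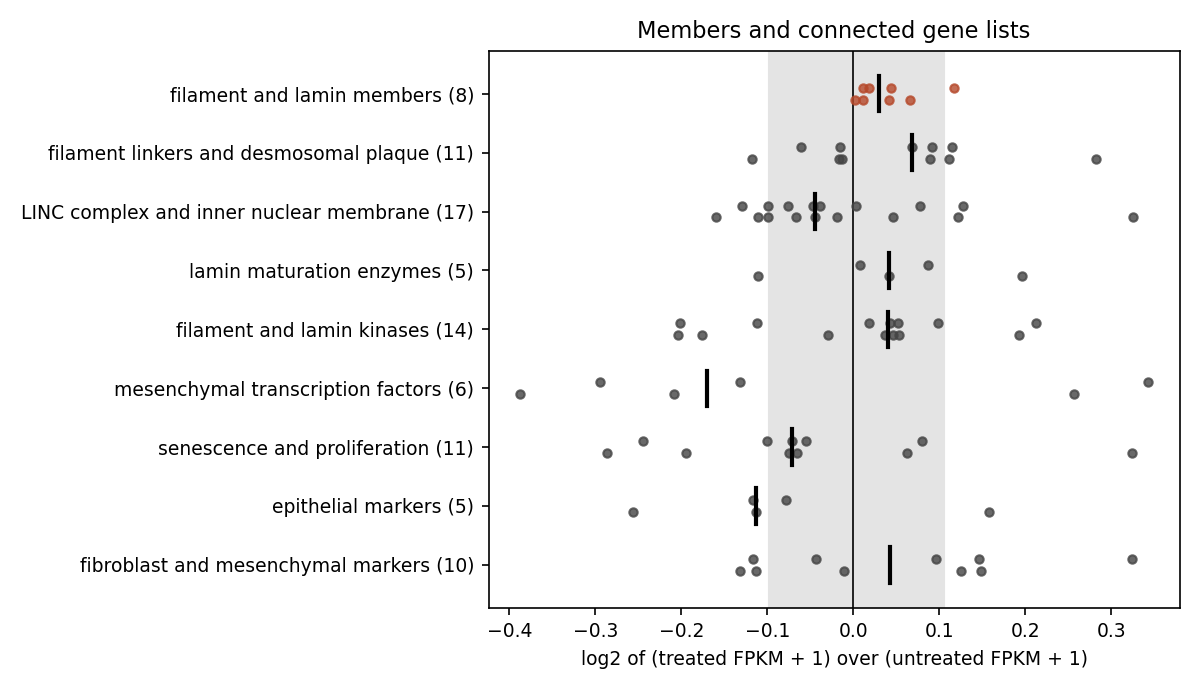
Log2 of (treated FPKM + 1) over (untreated FPKM + 1) for each gene over the floor (points) in the members and in 8 lists of at least 5 such genes, with the number of genes in brackets, the list median as a bar and the range between the quartiles of all genes as a grey band. The members run from 0.0021 to 0.12, and the other lists reach from -0.39 to 0.34.

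Transcription factors known to favour vimentin over epithelial genes were present at moderate levels. Of 8 such genes 6 were over the floor, 2 higher and 4 lower, with a median log2 ratio of -0.17. The sign of this median depends on the setting, since it was 0.024 with the most abundant transcript of each gene alone. ZEB2 was at 5.13 FPKM in treated and 3.83 FPKM in untreated cells, a ratio of 1.34 (1.12 to 1.60). SNAI1 was at 4.94 FPKM in treated and 6.77 FPKM in untreated cells, a ratio of 0.730 (0.503 to 1.05), and SNAI2 at 7.10 and 8.94 FPKM, a ratio of 0.795 (0.602 to 1.05). TWIST1 was at 18.2 FPKM in treated and 15.1 FPKM in untreated cells, a ratio of 1.21 (0.973 to 1.502). Of fibroblast and mesenchymal markers, 10 of 17 were over the floor, 5 higher and 5 lower, with a median log2 ratio of 0.043. Another 5, COL3A1, DCN, LUM, POSTN and FAP, were at 0 throughout. That median was -0.027 with no floor, 0.096 with a floor of 5 FPKM and 0.11 with the most abundant transcripts, so its sign depends on the setting. The list summed to 4418 FPKM in the treated and 3966 FPKM in the untreated library, and the counting interval lay above 1 in 5 genes, COL1A1, COL6A1, COL6A2, FN1 and TAGLN, against 6.6% of all genes over the floor. The same 5 intervals lay above 1 with fragments from the authors' bounds. Such an interval narrows as fragments rise, so a gene with many fragments can exclude 1 at a small ratio. COL6A1 did so at 1.07 (1.002 to 1.14). The 6.6% covers genes of every depth over the floor, so it is not a like comparison for abundant genes. The most abundant was FN1, fibronectin, at 3021 FPKM in treated and 2725 FPKM in untreated cells, and TAGLN, an actin-binding protein, had the largest ratio, 1.25 (1.19 to 1.32). The 5 lower genes were CDH2, S100A4, ACTA2, THY1 and PDGFRB, all with intervals that include 1. CDH2 was at 22.2 FPKM in treated and 24.4 FPKM in untreated cells, a ratio of 0.909 (0.814 to 1.01). COL1A2, below the floor, was at 0.157 and 0.196 FPKM in the same order.

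The labelled cell type was checked against its defining markers, which were largely absent. Of 21 microglia markers 3 were over the floor, all lower in treated cells with intervals that include 1, and the other 18 stayed under 1 FPKM. Both files give 0 FPKM for 11 of them, among them AIF1, TMEM119 and CX3CR1. The list summed to 72.0 FPKM in the treated and 80.7 FPKM in the untreated library. CD68, which encodes a lysosomal protein, was at 12.6 FPKM in treated and 15.7 FPKM in untreated cells. CD14, a receptor for endotoxin, was at 1.63 FPKM in treated and 1.97 FPKM in untreated cells. Of 8 astrocyte markers 3 were over the floor and AQP4, SLC1A2 and S100B were listed at 0. SLC1A3, a glutamate transporter, was at 5.25 FPKM in treated and 3.97 FPKM in untreated cells, a ratio of 1.32 (1.02 to 1.71). With fragments from the bounds its interval was 1.01 to 1.73. GJA1, a gap junction protein, was at 30.3 and 27.7 FPKM, and SOX9, a transcription factor, at 1.75 and 2.24 FPKM, in the same order. The intervals of GJA1 and SOX9 include 1. Of 8 neuron markers TUBB3, a beta tubulin, was the 1 over the floor, at 29.9 FPKM in treated and 29.3 FPKM in untreated cells. All 8 muscle markers and all 6 endothelial markers were under 1 FPKM in both libraries. The part of these cell types in the member values was not tested.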

How the data were processed

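Total RNA of 2 CHME3 samples was made into TruSeq libraries, per the labels' protocols, and groups follow the treatment labels. TopHat and Cuffdiff were used on the build hg38, per the submitters' processing notes, with no version given. The deposited files name Cufflinks as their source and hold, for each RefSeq transcript, an FPKM with lower and upper bounds. The score column that the authors deposited was not used. FPKM values are not counts, so no count test was run, and with 1 library per condition no p-value is given.

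FPKM was summed over the transcripts of a gene, with a floor of a mean of 1 FPKM and a pseudocount of 1. The bounds were read as 2 Poisson standard errors, which gives the fragments behind a value. Least-squares lines of fragments over FPKM against transcript length gave the depths, from 728 treated and 710 untreated genes with 1 transcript of at least 1000 bases and at least 10 fragments, whole within 0.01. Depth-based fragments of every gene follow from FPKM, length and depth. Ratio intervals are 95% exact binomial intervals, conditional on the summed fragments. They were run on simulated Poisson counts of known ratio, which checks the calculation for counting error only. The recovery of fragments from FPKM or bounds and the division of reads among transcripts were not simulated. Whether PCR duplicates were removed is not given in the sources used here, so intervals and floors cover counting error only.

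The members and the 18 other gene lists were chosen with earlier results of these data known. Named genes are all members, from each list the up to 4 genes past the floor whose log2 ratio was furthest from 0, the 4 most abundant genes of each filament list, and the 3 protein-coding genes nearest to VIM and LMNA. Other genes named, such as markers listed at 0, were chosen after their values were seen. Medians are given for lists with at least 5 genes over the floor. Sequences of LMNB1 and LMNB2 come from GENCODE 29 transcripts matched to RefSeq names through GENCODE's table, and both had the same introns as the files. Some items withheld for evaluation are not reported here. Protein-coding genes were taken from a RefSeq gene table of GRCh38, which matched 11566 of the 11668 genes over the floor. Python 3.11.15, numpy 2.4.6, pandas 2.3.3, scipy 1.17.1 and matplotlib 3.10.9 were used.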

Additional observations from a re-analysis of the deposited data

How the results depend on the processing

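Under 8 alternative settings of pseudocount, floor, scaling, transcript choice and transcript length, 0 members passed 1.5-fold or 2-fold, and the members' median log2 ratio lay between 0.018 and 0.043. All 64 recomputed member values stayed within the counting interval from the authors' bounds, but many could not move. The floors do not enter a gene's own ratio, and every member transcript is longer than 300 bases, so those settings return the main value. The choice of transcript cannot alter VIM, KRT7 or LMNB2, which have 1 each. Of the 64 values 2, both of SYNM, fell below 0, at -0.076 with its most abundant transcript alone and at -0.00033 with the median ratio of all genes set to 1. The median of the linker and plaque list was 0.12 with the most abundant transcripts, and the cause was not tested. The medians of 3 other lists changed sign under a setting. That of the mesenchymal factors ran from -0.25 to 0.024, that of the epithelial markers from -0.17 to 0.16 and that of the fibroblast markers from -0.027 to 0.11. With fragments recovered from the authors' bounds, an alternative added after the data were seen, 0 members had an interval that excluded 1, since those fragments are fewer. Over all genes, 77 passed 2-fold in the setting reported, against 45 with a floor of 5 FPKM, 172 with a pseudocount of 0.1, 45 with one of 5, 208 with the most abundant transcript and 31 without transcripts under 300 bases. Past 1.5-fold the counts were 260 in the setting reported, and 83, 556, 62, 626 and 210 under the same alternatives in that order, and 431 with no floor. No paired analysis was possible because each condition has 1 library. NES rests on 1 fragment in each library, KRT19 is listed at 0, and transcript splits rest on the authors' model.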
